A study of Mus musculus with 20 samples.

Results

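The Gadd45 family was followed through 5 conditions of cultured mouse dorsal root ganglion (DRG) neurons, the sensory neurons whose cell bodies lie beside the spinal cord. The genes were taken by name from the array annotation: Gadd45a, Gadd45b and Gadd45g, which make up the family in the mouse, and Gadd45gip1, whose product was named for its interaction with Gadd45 proteins. They are 4 of the 30222 gene names on the array and are read by 5 probes, of which Gadd45gip1 has 2.

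Gadd45 proteins are small nuclear proteins that act by binding others. They activate the stress kinase Map3k4, which feeds the p38 and Jnk cascades, they bind Pcna, Cdkn1a and the cyclin B kinase, and they help to bring repair enzymes to methylated DNA. In the brain, Gadd45b is known as a gene that neuronal activity induces, while Gadd45a is the member best known from DNA damage and from injured sensory neurons. Gadd45gip1, also called Crif1, is a protein of the large subunit of the mitochondrial ribosome and is needed for the synthesis of respiratory chain proteins.

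Total RNA was hybridized to 10 two-colour arrays, each of which held 2 samples of the same condition, 1 in Cy3 and 1 in Cy5. The neurons came from NIH Swiss mouse embryos at day 13.5 and were grown in chambers with stimulating electrodes. All cultures, the unstimulated ones included, had been treated with fluorodeoxyuridine, which inhibits dividing non-neuronal cells. Action potentials were evoked with biphasic pulses of 6 V and 0.2 ms.

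There were 4 samples on 2 arrays in each condition. Unstimulated neurons and neurons in which 18 action potentials were evoked every 1 min (18/1) over 2 hr shared slide 1. Slide 2 held the 18/1 pattern after 5 hr together with the 90/5 pattern, 90 action potentials every 5 min, after 2 hr. Neurons kept on 90/5 until 5 hr were on slide 3. The 4 samples of a condition are described as biological replicates and each condition as the product of 5 pooled cultures. Whether each sample was its own pool is not stated in the sources used here, and p-values measure the spread between these samples. In 18/1 5 hr and 90/5 2 hr the labels do not settle which replicate lay in which colour, and those samples are named here by array and colour.

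Signals were 2.27 to 10.4 times the background at the median spot of a sample, with the highest values on slide 2. Slide 2 also held the samples with the most spots marked as non-uniform, up to 14642 of 43020, against 6 to 36 on slide 1 and 37 to 85 on slide 3. Slide and condition cannot be told apart except for 18/1 2 hr against unstimulated neurons and for 90/5 2 hr against 18/1 5 hr. All 13 sensory neuron markers on a list that included Prph, Tubb3 and Calca were measured, with a mean log2 signal between 15.02 and 15.71 in every sample. Of the markers of other cells, 2 of 8 for Schwann cells, 4 of 6 for fibroblasts, 2 of 5 for macrophages and 1 of 3 for endothelial cells passed the spot filter. In total RNA of a culture, fewer cells of a type and less RNA per cell cannot be told apart.

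The probes are shown because each gene is read by a single 60-base stretch, or by 2 for Gadd45gip1, and the results are those of that stretch. Their positions are those of the array annotation in the mouse build mm9, and the first 30 bases are given 5′ to 3′. Gadd45a lies at chr6:66985376-66985435 on the minus strand, Gadd45b at chr10:80394367-80394426 on the plus strand and Gadd45g at chr13:51943733-51943792 on the plus strand. The brighter Gadd45gip1 probe lies at chr8:87358302-87358361 and the dimmer at chr8:87358778-87358837, both on the plus strand. Exon or untranslated region was not assigned, since no annotation of mm9 was used here.
Gadd45a: aagggacaaaaactacaaagcactgcaaga
Gadd45b: ctatatctctctagaggaacgctgagaccc
Gadd45g: acttagccgactgcactgctctttcaaaaa
Gadd45gip1, brighter probe: gtgtctggtgaacccagctcctgaaagctc
Gadd45gip1, dimmer probe: tcagactcacaaacagctgtgagaagctcc

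Promoter windows of the 3 Gadd45 genes are shown because the 3 are set side by side throughout. They run from 250 bases before to 50 after the gene start and were taken from RefSeq in build GRCm38.p6, in which Gadd45a is at chr6:67037358-67037657 on the minus strand, Gadd45b at chr10:80929841-80930140 on the plus strand and Gadd45g at chr13:51846425-51846724 on the plus strand. No window was matched for Gadd45gip1. Capitals mark matches, on either strand, to the motifs searched.
Gadd45a: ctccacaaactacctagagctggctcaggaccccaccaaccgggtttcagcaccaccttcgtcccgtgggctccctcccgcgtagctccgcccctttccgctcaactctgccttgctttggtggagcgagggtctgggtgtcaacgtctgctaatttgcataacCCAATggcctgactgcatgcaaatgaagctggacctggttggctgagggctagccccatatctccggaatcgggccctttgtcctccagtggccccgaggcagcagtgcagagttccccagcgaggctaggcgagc
Gadd45b: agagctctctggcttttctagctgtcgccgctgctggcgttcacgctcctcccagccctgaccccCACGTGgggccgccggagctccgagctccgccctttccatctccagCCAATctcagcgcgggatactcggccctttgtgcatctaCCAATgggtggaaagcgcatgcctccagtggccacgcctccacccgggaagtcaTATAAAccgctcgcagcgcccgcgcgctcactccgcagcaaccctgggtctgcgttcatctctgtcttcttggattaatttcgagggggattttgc
Gadd45g: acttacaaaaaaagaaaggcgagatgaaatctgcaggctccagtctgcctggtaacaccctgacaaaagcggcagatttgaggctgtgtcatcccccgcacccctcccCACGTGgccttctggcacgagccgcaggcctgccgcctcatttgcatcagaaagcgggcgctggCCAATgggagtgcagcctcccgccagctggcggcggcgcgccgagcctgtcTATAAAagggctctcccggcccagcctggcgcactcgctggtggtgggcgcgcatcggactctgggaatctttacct

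The first motif searched was the E-box CACGTG, which 7.15% of 32851 such mouse windows held. The second was the TATA box, read as the letters TATAAA, which 13.6% of windows held. The other was the CCAAT box, which 37.4% of windows held. Gadd45b and Gadd45g each held all 3 of these motifs, and Gadd45a held the last and neither of the others. The further motifs, likewise searched on both strands, were the cAMP response element TGACGTCA (1.79% of windows), its first part TGACG (20.8%), the AP-1 site TGANTCA (7.81%), the kappaB motif (4.51%) and the CArG box (1.63%), and none of these letters was found in the 3 windows. A match is a description of the sequence and does not show a site.

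With the brightest probe standing for each gene, Gadd45b was the 1 of 3 members tested that was called against unstimulated neurons. Of all genes tested, 0.0193% were called after 18/1 2 hr, 44.6% after 18/1 5 hr, 7.03% after 90/5 2 hr and 0.0676% after 90/5 5 hr. The normalized log2 signal of Gadd45b was lowest in unstimulated neurons and higher in each of the 16 stimulated samples, and it was highest after 5 hr of the 90/5 pattern. In unstimulated neurons replicates 1 to 4 had log2 signals of 8.44, 8.59, 8.44 and 8.65. After 18/1 for 2 hr they were 9.68, 9.23, 9.37 and 9.35. No stimulated sample lay as low as the highest unstimulated one. After 18/1 for 5 hr array 5 gave 9.98 in Cy3 and 9.49 in Cy5, and array 6 gave 9.53 and 9.29. After 90/5 for 2 hr array 7 gave 10.26 in Cy3 and 9.98 in Cy5, and array 8 gave 9.84 and 9.81. After 90/5 for 5 hr replicates 1 to 4 had 10.71, 10.45, 10.32 and 9.98. At each of the 2 times, the 4 samples given 90/5 lay above the 4 given 18/1, although at 5 hr the lowest of the former and the highest of the latter were both 9.98 when rounded. The share of all genes whose samples separate is not given, here or for other separations below. Such separations are a description only.

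The order of the condition means of Gadd45b ran from unstimulated neurons (8.53 ± 0.11, SD, n = 4) through 18/1 2 hr (9.41 ± 0.19), 18/1 5 hr (9.57 ± 0.29) and 90/5 2 hr (9.97 ± 0.20) to 90/5 5 hr (10.37 ± 0.30). The first step exceeded the spread of the samples, while the ranges of each of the following neighbours in this order overlapped. Before any normalization the Gadd45b spot was 5.34 to 6.17 times its local background in unstimulated neurons, 7.23 to 15.4 times in 18/1 2 hr, 24.9 to 29.0 times in 18/1 5 hr, 23.5 to 31.9 times in 90/5 2 hr and 16.8 to 55.0 times in 90/5 5 hr. The spot as scanned thus also lay above all unstimulated samples in each of the 16 stimulated ones, but 18/1 5 hr and 90/5 2 hr, which share slide 2, overlapped, and so did both with 90/5 5 hr. The separation of the patterns at 5 hr was thus not seen in the ratios as scanned.

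**Figure D1:**
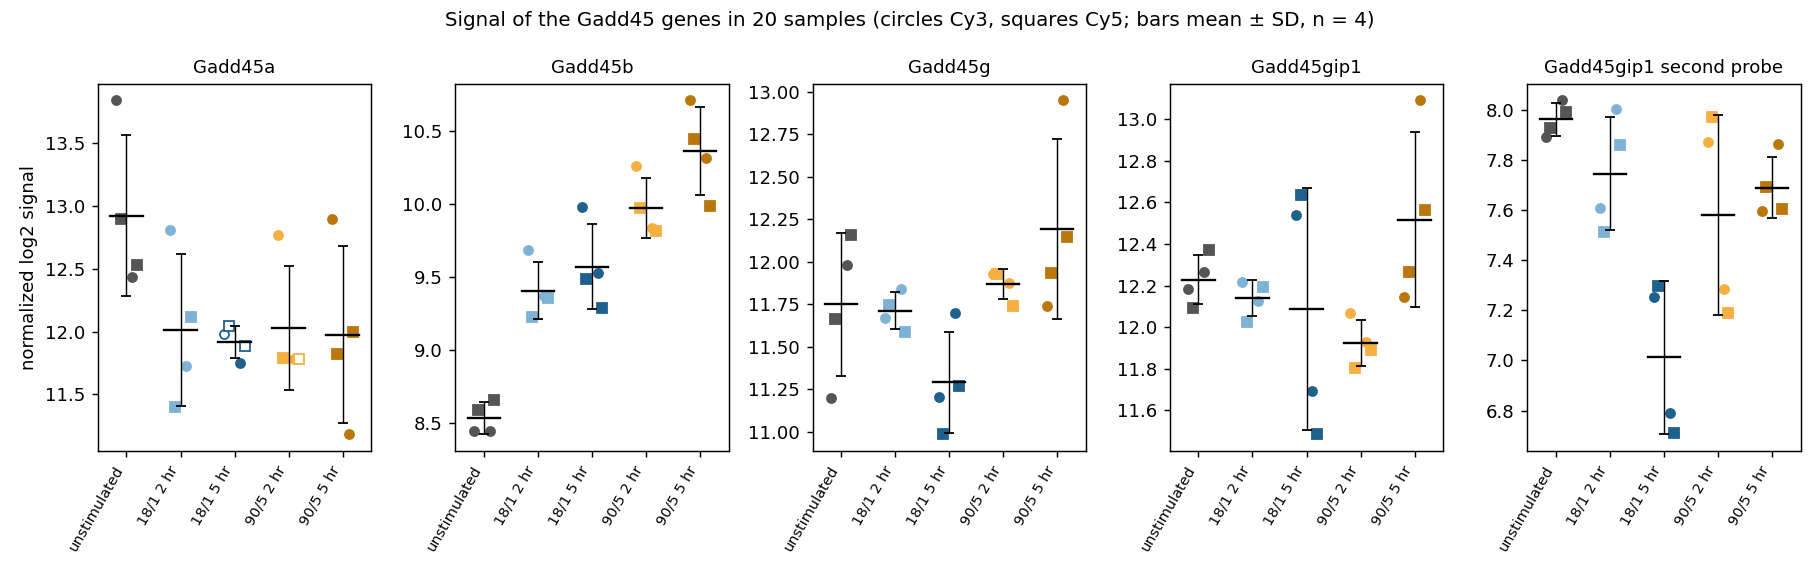
Normalized log2 signal of each probe of the 4 genes (y axis, scale set per panel) in the 5 conditions (x axis), with circles for Cy3, squares for Cy5, open symbols for spots marked as non-uniform, and bars for the mean and SD of 4 samples. For Gadd45b the 4 unstimulated samples, at 8.44 to 8.65, lie below all 16 stimulated samples, and no other panel shows this.

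**Figure D2:**
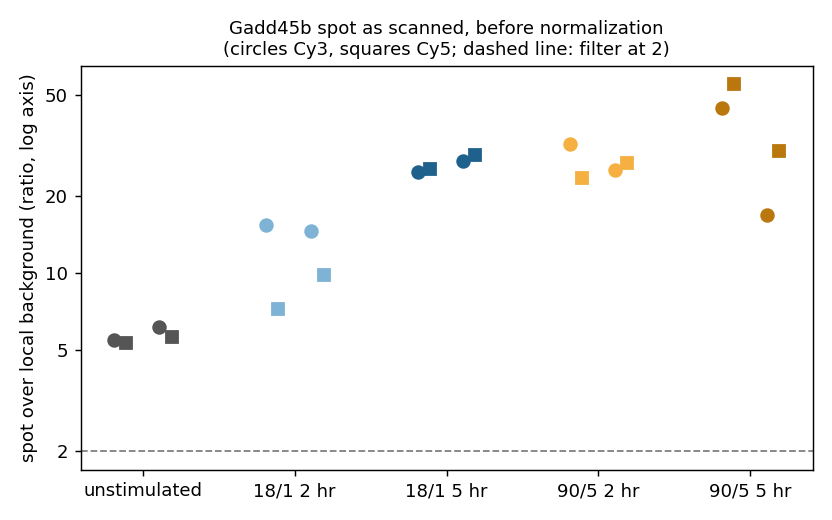
Ratio of the Gadd45b spot to its local background as scanned (y axis, log scale) in the 5 conditions (x axis), with circles for Cy3 and squares for Cy5 and a dashed line at the filter of 2. The unstimulated samples lie at 5.34 to 6.17 and the 90/5 5 hr samples at 16.8 to 55.0.

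Against unstimulated neurons, Gadd45b rose after 18/1 for 5 hr by a log2 fold change of 1.04 (SE 0.25, fold 2.05, adjusted p = 0.00203, limma with Benjamini-Hochberg adjustment). In that comparison 44.6% of the 10355 genes tested passed the threshold, so a call there is common. After 90/5 for 2 hr it rose by 1.44 (SE 0.25, fold 2.71, adjusted p = 0.000974), in a comparison that called 7.03% of genes. After 90/5 for 5 hr it rose by 1.83 (SE 0.25, fold 3.57, adjusted p = 0.000726), and here Gadd45b was 1 of only 7 genes called, 0.0676% of those tested. Its rank among the 10355 genes was 3 by p and 6 by the size of the rise. The 4 comparisons share the unstimulated samples.

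After 18/1 for 2 hr the log2 fold change of Gadd45b was 0.88 (SE 0.25, 95% interval 0.37 to 1.39), with an adjusted p of 1 in limma over all 20 samples. Only 2 genes, 0.0193% of those tested, were called there. The rank of Gadd45b by p was 8 in that comparison, and all 4 of its samples lay above all unstimulated ones, for which the share of all genes is not given. Both conditions were on slide 1, and a limma fit to their 8 samples alone gave the same 0.88 with an adjusted p of 0.0237, where 14 of 10355 genes were called. Between these conditions the 4 same-numbered pairs deviated together (correlation of deviations 0.173 to 0.519), and with replicate number as a block in that fit the adjusted p was 0.00709 (limma), with 207 of 10355 genes called. Same-numbered samples were also read in the same colour, and the fit with that block had no colour term. Pairing and colour therefore cannot be told apart there. The differences of the 4 pairs were 1.24, 0.64, 0.93 and 0.70.

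The call after 18/1 for 5 hr depended on the scaling. With arrays centred on their medians in place of loess and Aquantile, the log2 fold change fell to 0.41 (adjusted p = 0.295, limma). The same change of scaling moved the median of all genes in that comparison from -0.23 to -0.81, so that Gadd45b lay 1.27 above the median of all genes under the first scaling and 1.21 above it under the second. Relative to the same medians it lay 1.52 and 1.47 above in 90/5 2 hr, 1.84 and 1.92 in 90/5 5 hr, and 0.88 and 0.91 in 18/1 2 hr. The call after 90/5 for 5 hr was lost without array 1, 1 of the 2 unstimulated arrays, at 1.82 with an adjusted p of 0.0679.

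Between the patterns, Gadd45b was higher after 90/5 than after 18/1 at 5 hr by a log2 difference of 0.80 (SE 0.25, fold 1.74, adjusted p = 0.012, limma), in a comparison that called 45.5% of genes. Its rank by p there was 3329, and without array 9 the difference was 0.58 (adjusted p = 0.155). Under median centring it was 1.65, while the median of all genes moved from 0.23 to 0.93. At 2 hr the difference was 0.56 (SE 0.25, 95% interval 0.05 to 1.07, adjusted p = 0.199), and 5.02% of genes were called. The 5 hr difference exceeded the 2 hr difference by 0.23 (SE 0.35, adjusted p = 0.611, limma), in a contrast that called 44.9% of genes, so a change of the pattern effect with time was not detected for Gadd45b.

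Between the times, the log2 difference of Gadd45b from 2 hr to 5 hr was 0.16 within 18/1 (95% interval -0.35 to 0.67, adjusted p = 0.612, limma), where 44.2% of genes were called. Within 90/5 it was 0.39 (95% interval -0.12 to 0.91, adjusted p = 0.356, limma), where 9.01% were called. Within 90/5, 3 of the 4 samples of 5 hr lay above all samples of 2 hr. Under median centring the difference within 18/1 turned to -0.52, while that of all genes moved from -0.23 to -0.80.

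In 2 further comparisons both pattern and time differed. Gadd45b was at 0.96 more after 90/5 for 5 hr than after 18/1 for 2 hr (SE 0.25, 95% interval 0.45 to 1.47, adjusted p = 0.494, limma, 0.0386% of genes called), with no overlap of samples. On slide 2 the difference between 90/5 2 hr and 18/1 5 hr was 0.40 (95% interval -0.11 to 0.91, adjusted p = 0.277, limma, 12.9% of genes called). This is the only comparison of patterns within a slide, and the samples overlapped.

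**Figure D3:**
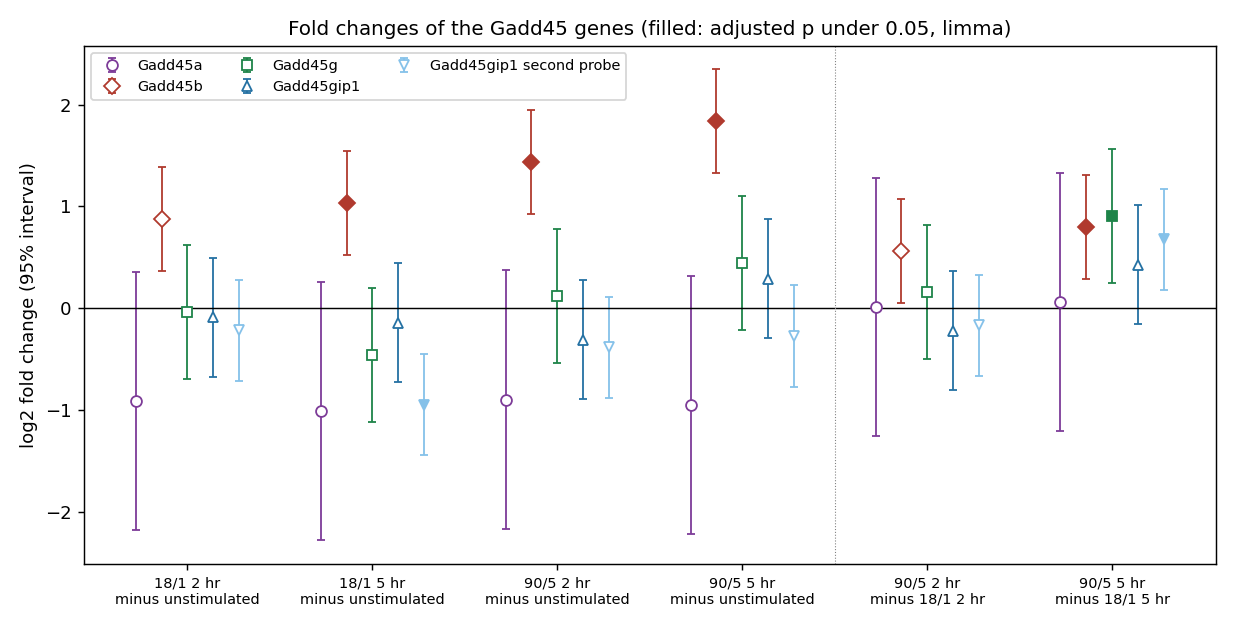
Log2 fold change of each probe (y axis) with its 95% interval in 6 comparisons (x axis), filled where the adjusted p was under 0.05 in limma. Gadd45b lies at 0.88 to 1.83 against unstimulated neurons, while the intervals of Gadd45a, Gadd45g and the brighter Gadd45gip1 probe include 0 in those 4 comparisons.

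Gadd45g, the member best known for halting the division of differentiating cells, was not called against unstimulated neurons. Unstimulated replicates 1 to 4 had log2 signals of 11.20, 11.67, 11.98 and 12.16, a range that held all samples of both 2 hr conditions. In 18/1 2 hr they were 11.67, 11.75, 11.84 and 11.59. In 90/5 2 hr they were 11.93 and 11.93 on array 7 and 11.88 and 11.74 on array 8. These 2 conditions thus lay within the spread of unstimulated neurons. In 18/1 5 hr the samples were at 11.21 and 10.99 on array 5 and 11.70 and 11.27 on array 6, and in 90/5 5 hr at 11.74, 11.94, 12.95 and 12.14. Samples of 18/1 5 hr were thus at the low end, and all 4 samples of 90/5 5 hr lay above them.

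From lowest to highest the condition means of Gadd45g were 11.29 ± 0.30 in 18/1 5 hr, 11.71 ± 0.11 in 18/1 2 hr, 11.75 ± 0.42 in unstimulated neurons, 11.87 ± 0.09 in 90/5 2 hr and 12.19 ± 0.53 in 90/5 5 hr (SD, n = 4), and each neighbouring pair in this order overlapped. Against unstimulated neurons the log2 fold changes after 2 hr were -0.04 with 18/1 and 0.12 with 90/5, and after 5 hr they were -0.46 with 18/1 and 0.44 with 90/5, each with SE 0.32. None passed the test (adjusted p 0.248 to 1, limma). Under median centring the fall after 18/1 for 5 hr was -1.18 and passed. That scaling moved the median of all genes from -0.23 to -0.81 and called 5443 of 10355 genes. Leaving out 1 sample or array at a time moved the value of 18/1 5 hr between -0.78 and -0.14 and that of 90/5 5 hr between 0.088 and 0.80, and neither passed. The call for Gadd45g was between the patterns at 5 hr, with 90/5 above 18/1 by 0.90 (SE 0.32, fold 1.87, adjusted p = 0.0247, limma), where 45.5% of genes were called and the rank of Gadd45g by p was 3987. The call was lost in 8 of 46 alternatives. It was lost with no spot filter (0.90, adjusted p = 0.1, limma), with only the conditions compared in the fit (0.90, adjusted p = 0.0798, limma), with array quality weights (0.62, adjusted p = 0.0698, limma) and in the methods' t-test, adjusted or not (0.96). It was also lost without array 5 (0.71, adjusted p = 0.107), without array 10 (0.55, adjusted p = 0.249) and without replicate 3 of 90/5 5 hr (0.68, adjusted p = 0.0527, limma). The difference was 1.75 under median centring, while the median of all genes moved from 0.23 to 0.93. At 2 hr the pattern difference of Gadd45g was 0.16 (95% interval -0.50 to 0.81), and the difference between the 2 times was 0.74 (SE 0.45, adjusted p = 0.183, limma). Within slide 2 the 4 samples of 90/5 2 hr lay above the 4 of 18/1 5 hr, by 0.58 (SE 0.32, adjusted p = 0.222, limma, 12.9% of genes called). The methods' t-test without adjustment called it (0.56), where 1727 of 10355 genes were called. Limma under median centring also called it (1.44), where 4855 were. That scaling moved the median of all genes from 0.16 to 0.83.

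Gadd45a, the damage-responsive member, was bright in every sample, at 33.8 to 228 times the background. Its spot carried the mark for non-uniform spots in 4 samples of slide 2, of which 3 were 18/1 5 hr and 1 was 90/5 2 hr, so it failed the filter over all samples. Its tests come from a fit in which the filter had to hold in all 4 samples of at least 1 condition, with 18744 genes. Unstimulated replicates 1 to 4 had log2 signals of 13.84, 12.89, 12.43 and 12.53, and 18/1 2 hr had 12.81, 11.40, 11.73 and 12.12. In both conditions replicate 1 was the highest. In 18/1 5 hr the samples were at 11.98 and 12.04 on array 5 and 11.75 and 11.89 on array 6. In 90/5 2 hr they were at 12.77 and 11.79 on array 7 and 11.78 and 11.78 on array 8, and in 90/5 5 hr at 12.90, 11.82, 11.18 and 12.00. The samples of 18/1 5 hr lay below all unstimulated ones, and in each of the other stimulated conditions 3 of 4 did. The share of all genes that did so is not given. In 18/1 2 hr all 4 samples lay below the unstimulated sample of the same number, by differences of -1.03, -1.49, -0.70 and -0.41 (-0.91 with adjusted p = 0.082 in limma fitted to these conditions with replicate number as a block). Samples of the same number also shared a colour.

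The condition means of Gadd45a were 12.93 ± 0.64 in unstimulated neurons and, in the stimulated conditions, 12.03 ± 0.49 in 90/5 2 hr, 12.01 ± 0.61 in 18/1 2 hr, 11.97 ± 0.71 in 90/5 5 hr and 11.92 ± 0.13 in 18/1 5 hr (SD, n = 4). The stimulated means lay within the spread of their samples. The log2 fold changes with 18/1 were -0.91 after 2 hr (adjusted p = 1) and -1.01 after 5 hr (adjusted p = 0.199), and with 90/5 they were -0.90 after 2 hr (adjusted p = 0.434) and -0.95 after 5 hr (adjusted p = 1), each with SE 0.61 in limma. None passed in that fit, which called 0.0213%, 37.0%, 5.13% and 0.149% of genes in the same order. The 95% intervals ran from -2.28 at the lowest to 0.37 at the highest. The unstimulated arrays weighed heavily, since the 4 values were -0.47, -0.57, -0.45 and -0.51 without array 1 and -1.35, -1.45, -1.34 and -1.39 without array 2. Without the array as a block the fall after 18/1 for 5 hr passed (-1.01, adjusted p = 0.0215, limma), as did 10581 of 18744 genes. It also passed with array quality weights (-1.23, adjusted p = 0.0393, limma), where 10052 genes did. With a block for replicate number the fall after 90/5 for 5 hr passed (-0.95, adjusted p = 0.0246, limma), where 751 genes did. Between the patterns Gadd45a differed by 0.01 at 2 hr and 0.06 at 5 hr, with 95% intervals from -1.25 to 1.28 and from -1.21 to 1.33. Under median centring the 5 hr difference was 0.85 (adjusted p = 0.288, limma), and that of 90/5 2 hr from 18/1 5 hr was 0.89 (adjusted p = 0.301, limma).

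Gadd45gip1, the mitochondrial ribosomal protein, was read differently by its 2 probes. The brighter probe, 58.0 to 245 times the background, had log2 signals of 12.18, 12.09, 12.26 and 12.37 in unstimulated replicates 1 to 4 and of 12.22, 12.02, 12.13 and 12.19 in 18/1 2 hr. In 90/5 2 hr it was at 12.07 and 11.80 on array 7 and 11.93 and 11.89 on array 8. These 4 samples lay just below all unstimulated ones. In 18/1 5 hr the arrays split, with 12.54 and 12.63 on array 5 against 11.69 and 11.49 on array 6, and in 90/5 5 hr the samples were at 12.14, 12.27, 13.09 and 12.56. Both 5 hr conditions thus had a wider spread than the others.

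The condition means of this probe were 11.92 ± 0.11 in 90/5 2 hr, 12.09 ± 0.58 in 18/1 5 hr, 12.14 ± 0.09 in 18/1 2 hr, 12.23 ± 0.12 in unstimulated neurons and 12.52 ± 0.42 in 90/5 5 hr (SD, n = 4). In limma it was called in 0 of the 10 comparisons, and at an unadjusted threshold of 0.05 in 1 of them, 90/5 5 hr against 90/5 2 hr (log2 difference 0.60, SE 0.28, adjusted p = 0.207, limma). The methods' t-test with its minimum fold of 1.4 called it in 0 of 10. The 5 hr pattern difference of this probe was 0.43, it was 0.93 without array 5 (adjusted p = 0.00785, limma, 4112 of 10355 genes called) and it was -0.070 without array 6. Against unstimulated neurons its log2 fold changes with 18/1 were -0.09 after 2 hr and -0.14 after 5 hr, and with 90/5 they were -0.31 after 2 hr and 0.29 after 5 hr, each with SE 0.28.

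The dimmer Gadd45gip1 probe was 2.05 to 6.30 times the background and was marked as well above it in 17 of 20 samples, with the other 3 on slide 2. In a fit of every probe, with 12137 probes, it was lower after 18/1 for 5 hr than in unstimulated neurons by -0.95 (SE 0.24, adjusted p = 0.00321, limma), lower than after 18/1 for 2 hr by -0.73 (adjusted p = 0.017), and higher after 90/5 than after 18/1 at 5 hr by 0.68 (adjusted p = 0.0253). Those 3 comparisons called 45.1%, 45.0% and 45.9% of probes. Its means were 7.96 ± 0.07, 7.75 ± 0.23, 7.01 ± 0.31, 7.58 ± 0.40 and 7.69 ± 0.12 in unstimulated neurons, 18/1 2 hr, 18/1 5 hr, 90/5 2 hr and 90/5 5 hr. The probes disagreed, since the brighter gave -0.14 where the dimmer gave -0.95, and the gene is taken as uncertain in these comparisons.

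Single samples moved several members. By normalized signal, replicate 3 of 90/5 5 hr, read in Cy3 on array 10, had the highest Gadd45g of all 20 samples. It also had the highest signal of the brighter Gadd45gip1 probe and the lowest Gadd45a, while its Gadd45b was the third of 4 in its condition. As scanned it was at none of these extremes. Its ratios to background were 130 for Gadd45g (highest 156), 139 for the brighter Gadd45gip1 probe (highest 245) and 38.5 for Gadd45a (lowest 33.8). Differences between members were not tested.

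Transcripts of proteins that Gadd45 binds or acts through were taken as a list. Of 13 partners and effectors listed, 7 were tested, and 0 were called after 18/1 2 hr, 90/5 2 hr or 90/5 5 hr in limma (0, 3 and 1 at an unadjusted threshold of 0.05, which 0.898%, 23% and 3.69% of all genes passed). After 18/1 5 hr 3 fell and 0 rose, against 44.6% of all genes called in that comparison, and the median over the 7 was -0.54 against -0.23 over all genes. With the filter within a condition 12 were tested, and 2 rose and 2 fell with a median of -0.12, against 37.0% of genes called. Between the patterns at 5 hr 4 of the 7 were higher after 90/5 and 0 lower (57.1% called, against 45.5% of all genes), with a median of 0.87 against 0.23, while with the filter within a condition 3 of 12 were higher and 2 lower (41.7%, against 38.2% of all genes), with a median of 0.25. Those that fell among the 7 against unstimulated neurons were Map2k7, a kinase that activates Jnk (-1.58, SE 0.24, adjusted p = 4.89e-05), Cdkn1a, the cell cycle inhibitor p21 (-1.47, SE 0.29, adjusted p = 0.000422), and Mapk8, which is Jnk itself (-1.12, SE 0.35, adjusted p = 0.014). With the filter within a condition Mapk8 was read by another probe and was not called (-0.61, adjusted p = 0.334, limma). Their log2 signals went from 8.72 ± 0.15 to 7.13 ± 0.23 for Map2k7, from 15.02 ± 0.21 to 13.54 ± 0.40 for Cdkn1a and from 8.19 ± 0.14 to 7.06 ± 0.21 for Mapk8. With replicate number as a block 0 of the 7 were called in 18/1 2 hr, against 2% of all genes. In 90/5 2 hr, on the same slide as 18/1 5 hr, the 3 genes were at 8.36 ± 0.39, 14.25 ± 0.59 and 7.78 ± 0.82 (log2 fold changes -0.36, -0.77 and -0.41, adjusted p 0.11 to 0.527, limma). In 90/5 5 hr the same genes were at 8.62 ± 0.10, 15.13 ± 0.13 and 8.04 ± 0.41, near the unstimulated levels.

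Among 20 genes of p53 and the stress response, 14 were tested. After 18/1 5 hr 3 fell and 0 rose with a median of 0.15 over the 14 (21.4% called, against 44.6% of all genes), after 90/5 2 hr 1 rose and 1 fell (14.3% against 7.03%), and 0 were called at 18/1 2 hr and 90/5 5 hr in limma (1 and 2 at an unadjusted threshold of 0.05, which 0.898% and 3.69% of all genes passed). With the filter within a condition all 20 were tested, and 1 rose and 5 fell after 18/1 5 hr, while 1 rose and 0 fell after 90/5 2 hr, in comparisons that called 37.0% and 5.13% of genes. Between the patterns at 5 hr 5 of the 14 were higher after 90/5 and 2 lower (50%, against 45.5% of all genes). With the filter within a condition 6 of 20 were higher and 3 lower (45%, against 38.2%). Btg2, an antiproliferative gene that p53 and neuronal activity induce, rose at 90/5 2 hr by 1.48 (SE 0.28, adjusted p = 0.00297, limma), and it was at 1.29 in 18/1 2 hr (adjusted p = 0.445, without pairing), 0.46 in 18/1 5 hr (adjusted p = 0.198) and 1.41 in 90/5 5 hr (adjusted p = 0.0817). In the fit of unstimulated and 18/1 2 hr with replicate number as a block, Btg2 was called (1.29, adjusted p = 0.000263, limma) and was the 1 of 14 that was, where 207 of 10355 genes were. Replicate number and colour cannot be told apart in that fit. Bbc3, which encodes the pro-apoptotic protein Puma, fell at 18/1 5 hr (log2 fold change -2.17, adjusted p = 4.31e-05) and at 90/5 2 hr (-1.20, adjusted p = 0.0288), and the latter call was lost with the filter within a condition. Atf3, a transcription factor of injured sensory neurons, also fell at 18/1 5 hr (-1.41, adjusted p = 0.00598), as did Myc, a growth regulator (-1.15, adjusted p = 0.0146). Atf3 was at 13.33 ± 0.66 in unstimulated neurons and 11.92 ± 0.13 in 18/1 5 hr.

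Of 16 genes of DNA demethylation and methylation, to which Gadd45 is linked, 6 were tested. After 18/1 5 hr 2 rose (33.3% called, against 44.6% of all genes), after 90/5 2 hr 1 rose (16.7% against 7.03%), and 0 were called at 18/1 2 hr and 90/5 5 hr in limma (0 also at an unadjusted threshold of 0.05, which 0.898% and 3.69% of all genes passed, and 0 in 18/1 2 hr with replicate number as a block, against 2% of all genes). With the filter within a condition 13 were tested, and 5 rose and 2 fell after 18/1 5 hr (53.8%, against 37.0% of all genes). Between the patterns at 5 hr 0 of the 6 were higher after 90/5 and 2 lower (33.3%, against 45.5% of all genes). With the filter within a condition 2 of 13 were higher and 5 lower (53.8%, against 38.2%). Apobec3, a cytidine deaminase, rose by 2.65 after 18/1 5 hr (SE 0.50, adjusted p = 0.000296, limma) and by 2.03 after 90/5 2 hr (adjusted p = 0.0157, limma). It had 3 saturated spots, so these values are not exact, and both conditions lay on slide 2. Tet2, which oxidizes methylcytosine, rose at 18/1 5 hr by 0.88 (SE 0.25, adjusted p = 0.00643) and was at 0.51 in 90/5 2 hr (adjusted p = 0.223), -0.014 in 18/1 2 hr and -0.0053 in 90/5 5 hr.

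Gadd45gip1 belongs to the large subunit of the mitochondrial ribosome, of which 42 of 47 other genes were tested. After 18/1 5 hr 12 rose and 5 fell, 40.5% of those tested against 44.6% of all genes, and 0 were called in 18/1 2 hr, 90/5 2 hr and 90/5 5 hr in limma (0, 11 and 1 at an unadjusted threshold of 0.05, which 0.898%, 23% and 3.69% of all genes passed). With replicate number as a block 1 of the 42, Mrpl39, which was singled out after its value was seen, was called higher in 18/1 2 hr, where 207 of 10355 genes (2%) were called. Between the patterns at 5 hr 10 of the 42 were higher after 90/5 and 9 lower (45.2%, against 45.5% of all genes). With the filter within a condition 11 of 47 were higher and 8 lower (40.4%, against 38.2%). After 18/1 for 5 hr Mrpl3 (1.67, adjusted p = 0.000162), Mrpl4 (1.54, adjusted p = 0.000193) and Mrpl16 (1.15, adjusted p = 0.00222) rose, while Mrpl9 fell (-1.49, adjusted p = 0.000292). Mrpl3 had 2 and Mrpl4 had 4 saturated spots, so their values are not exact.

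On the arrays of 18/1 5 hr the means of the fibroblast and endothelial markers also lay outside the range of unstimulated neurons. Over the 6 fibroblast markers the mean log2 signal of a sample was 10.38 to 11.49 in unstimulated neurons and 11.68 to 12.04 in 18/1 5 hr, and over the 3 endothelial markers it was 8.68 to 9.16 and 7.33 to 7.59. Over the 8 Schwann cell markers it was 9.95 to 10.43 and 9.88 to 10.12, and over the 5 macrophage markers 10.21 to 10.44 and 9.91 to 10.69, so these ranges overlapped. In the fit with the filter within a condition, 18/1 5 hr had 1 of 6 fibroblast markers higher, 2 of 3 endothelial markers lower, 1 higher and 2 lower of 7 Schwann cell markers and 1 of 5 macrophage markers higher. Of the sensory neuron markers 1 of 13 was lower there. The shares of these lists lay on both sides of the 37.0% of all genes called. Markers such as Erbb3 (Schwann cells), Pdgfra (fibroblasts) and Cdh5 (endothelial cells) were below 2 times the background in at least 1 unstimulated sample. The part of other cells in the results of 18/1 5 hr was not tested. After 90/5 2 hr the endothelial markers were at 7.58 to 8.44, with 1 of 3 lower, where 5.13% of all genes were called. In 90/5 5 hr, where Gadd45b was highest, the fibroblast markers were at 10.53 to 11.42 and the endothelial markers at 8.85 to 9.25. In that fit 0 markers of the 4 lists of other cells were called, against 0.149% of all genes, with 1 endothelial marker passing an unadjusted threshold of 0.05.

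The genes whose profile over the 20 samples lay closest to that of Gadd45b, by the root mean square difference of log2 signals centred on each gene's mean, were Tiparp (0.39), Per1 (0.43), 2010111I01Rik (0.45), Bhlhe40 (0.45) and Pnkd (0.46). The median over all genes was 0.81, and Gadd45b itself varied by 0.65 about its mean. Tiparp, a target of the aryl hydrocarbon receptor, differed from unstimulated neurons by 0.78 in 18/1 2 hr, 1.11 in 18/1 5 hr, 1.02 in 90/5 2 hr and 1.32 in 90/5 5 hr on the log2 scale. The clock gene Per1 differed by 0.39, 0.44, 0.89 and 0.86, and the transcriptional repressor Bhlhe40 by 0.69, 0.76, 0.84 and 1.12, in the same order. All 3 had their lowest mean in unstimulated neurons, and Tiparp and Bhlhe40 had their highest mean, as Gadd45b did, in 90/5 5 hr. These genes were chosen for their likeness, so the values are a description.

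For Gadd45g the closest profiles were those of Hdac10 (0.21), 2900079G21Rik (0.22), Tmem51 (0.23), Atf5 (0.24) and Socs1 (0.25), with a median over all genes of 0.56. For the brighter Gadd45gip1 probe they included 1810009N02Rik (0.16), Mboat7 (0.19), Scand1 (0.19) and Pde1b (0.21), with a median of 0.58. Hdac10, a deacetylase, was at 0.03, -0.43, 0.13 and 0.44 in the 4 stimulated conditions, beside -0.04, -0.46, 0.12 and 0.44 for Gadd45g.

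**Figure D4:**
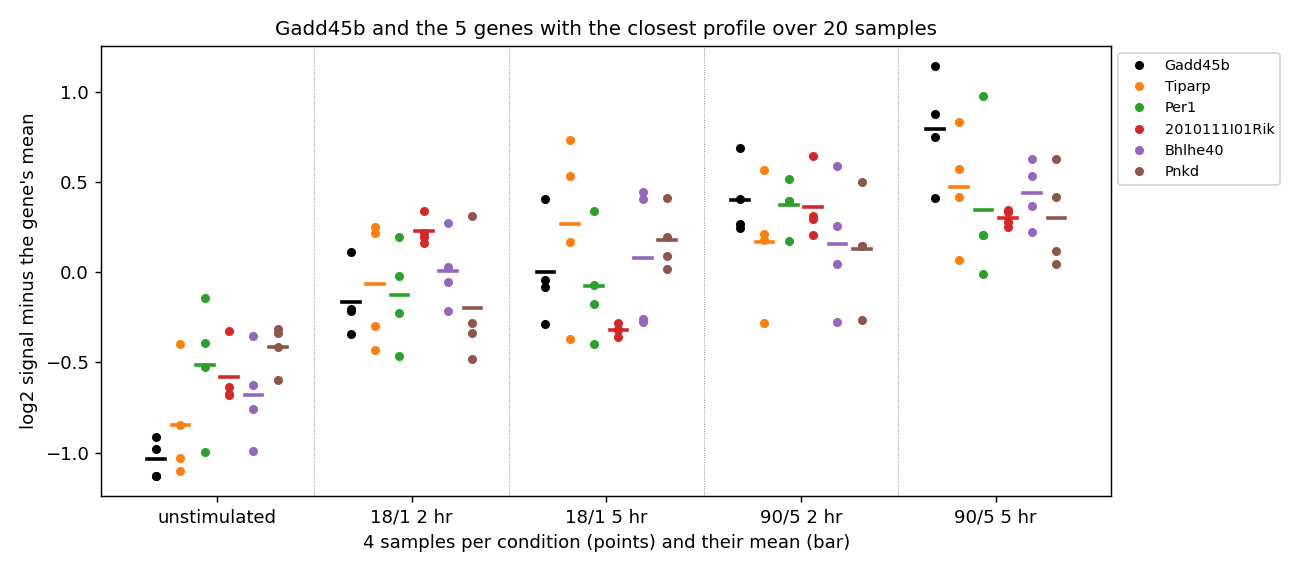
Log2 signal of Gadd45b and of the 5 genes with the closest profile, each minus its own mean over 20 samples (y axis), in the 5 conditions (x axis), with points for samples and bars for the mean of 4. Gadd45b has the lowest mean of the 6 genes in unstimulated neurons and the highest in 90/5 5 hr.

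**Figure D5:**
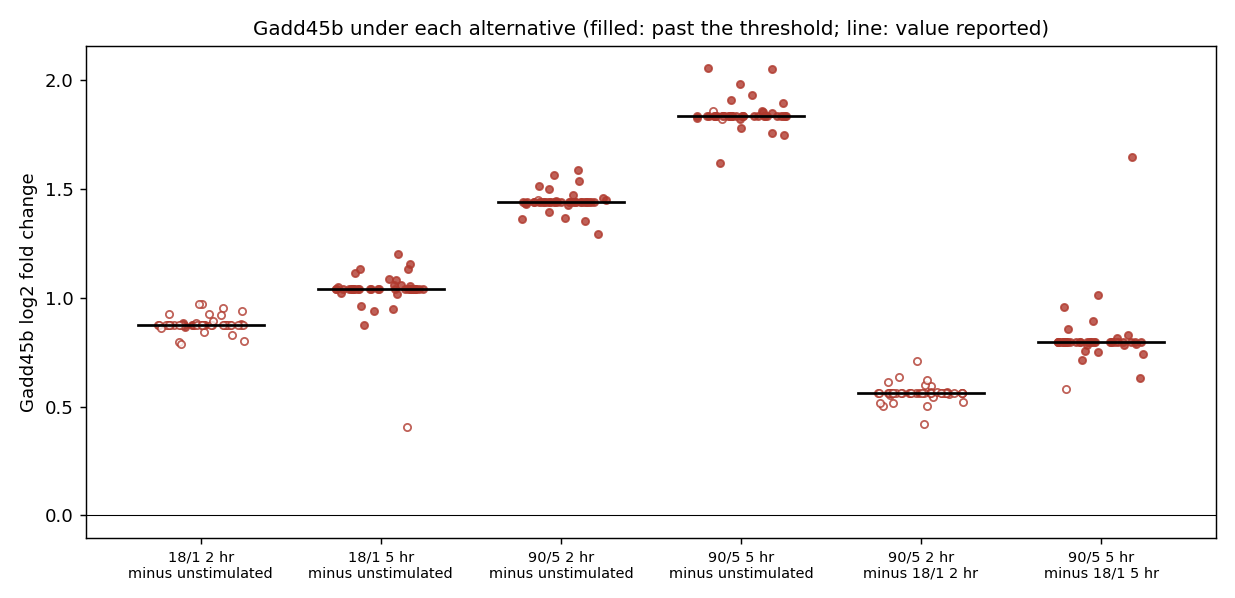
Log2 fold change of Gadd45b (y axis) in 6 comparisons (x axis) under each alternative setting, filled where past the threshold, with a line at the value reported. In the 4 comparisons with unstimulated neurons the values lie between 0.41 and 2.05, and the lowest is that of 18/1 5 hr under median centring.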

How the data were processed

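The files used here hold raw scanner intensity as the authors deposited it: for every spot and dye, its mean brightness and the median brightness of the surrounding background, linear and unnormalized, from Agilent Feature Extraction 10.7.1.1 (slide 1) or 10.7.3.1 (slides 2 and 3). Quality marks (saturation, non-uniformity, signal well above background) came from the same files, and 36 further columns per colour were not used. Analysis was run with limma 3.58.1 under R 4.3.3 and plotting with matplotlib 3.10.9. After normexp correction (offset 50), loess within arrays (control spots weighted 0) and Aquantile between arrays, a probe was kept if each of its 20 samples exceeded 2 times background without the non-uniform mark, and the brightest probe stood for each of the 10355 genes. The model had condition and dye as fixed effects and array as random (correlation 0.529). P-values were adjusted by Benjamini-Hochberg per comparison at 0.05. Gadd45a was tested in the filter-within-a-condition fit (correlation 0.639).

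The genes named were the 4 members, the 5 closest profiles of each member that passed the filter, at most 4 called genes per pathway list and, after its value was seen, Mrpl39. A gene among the closest profiles and a marker gene are not reported here. Members and lists were chosen with earlier results of these data known. The methods' t-test with a minimum fold of 1.4 was run in part. Precision is limited by 2 arrays per condition. The fit was tested on simulated data. Deviations of same-numbered samples correlated above 0.1 in all 4 pairs of unstimulated and 18/1 2 hr, which were taken as paired, and not in all pairs of the other conditions with known numbers. Same-numbered samples also shared a colour, which could not be told apart from pairing.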

Additional observations from a re-analysis of the deposited data

Results flagged for a closer look

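Among 25 sets of 4 samples, 5 probes in 5 conditions, 1 had a sample far from the others, and chance gives about 1 in 20. It was Gadd45a in 90/5 2 hr, where the Cy3 sample of array 7 was at 12.77 against 11.78 to 11.79 in the other 3, a gap of 0.986 of the whole range.

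The effects of the patterns differed at 5 hr for Gadd45b, by 0.80 in log2 (90/5 above 18/1, adjusted p = 0.012, limma), and for Gadd45g, by 0.90 (adjusted p = 0.0247, limma), in a comparison that called 45.5% of genes. The Gadd45g call was lost in 8 of 46 alternatives. Without array 9 the Gadd45b difference was 0.58 and was not called (adjusted p = 0.155, limma). In each gene all 4 normalized samples of 90/5 lay above all 4 of 18/1. The share of all genes that did so is not given, so this is a description only. As scanned, the ratios to background overlapped in both genes. They were 24.9 to 29.0 with 18/1 and 16.8 to 55.0 with 90/5 for Gadd45b, and 56.1 to 134 and 105 to 156 for Gadd45g. The patterns were on different slides at 5 hr, so these ratios cannot test the difference. In that comparison 3 of 4 fibroblast markers tested were lower after 90/5 and the 1 endothelial marker tested was higher, with 0 of 2 Schwann cell and 0 of 2 macrophage markers called. With the filter within a condition 1 of 6 fibroblast markers was lower. In that fit 2 of 3 endothelial and 1 of 7 Schwann cell markers were higher, and 0 of 5 macrophage markers were called, against 38.2% of all genes. The part of other cells was not tested.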

How the results depend on the processing

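Up to 49 alternatives were run per comparison. Gadd45b kept its direction in all of them in 9 of 10 comparisons. Median centring gave 0.41 (18/1 5 hr against unstimulated, below the threshold), -0.52 (18/1 5 hr against 18/1 2 hr, reversed) and 1.06 (90/5 2 hr against 18/1 5 hr, past it, as were 4855 of 10355 genes). The methods' t-test with adjustment lost 90/5 2 hr (1.45) and 90/5 5 hr (1.85) against unstimulated and the 5 hr pattern difference (0.80). Means of arrays lost 90/5 5 hr (1.83). Calls were gained for 18/1 2 hr against unstimulated by fitting only those conditions (0.88), array quality weights (0.86) and the unadjusted t-test (0.88). These settings called 14, 1599 and 215 of 10355 genes. For the 2 hr pattern difference they were gained without the array block (0.56, 1832 genes called) and by the t-test (0.57, 1753 called). For 90/5 5 hr against 18/1 2 hr they were gained without the array block (0.96, 20 called), without slide 2 (0.96, 121 called) and with weights (0.98, 1309 called). They were also gained there by the t-test (0.97, 308 called) and with a replicate block (0.96, adjusted p = 0.0152, limma, 134 called). Deviations of same-numbered samples correlated at 0.173 to 0.519 between unstimulated and 18/1 2 hr, so these were taken as paired, and a replicate block among them alone called Gadd45b (0.88, adjusted p = 0.00709, limma, 207 of 10355 genes called) and no other member. Same-numbered samples also shared a colour, which that block could not separate from pairing. With 90/5 5 hr the correlations fell to -0.54 and were not all above 0.1, so those numbers were not taken as pairing. The block over these 3 conditions left Gadd45b in 18/1 2 hr uncalled (0.88, adjusted p = 0.115), called Gadd45a lower in 90/5 5 hr (-0.95, adjusted p = 0.0246) and, beside that in 90/5 5 hr against 18/1 2 hr, changed no other call of a member.

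Leaving out 1 sample or array gave for Gadd45b 1.62 to 2.05 (90/5 5 hr against unstimulated), 0.58 to 1.01 (5 hr pattern difference) and -0.00022 to 0.33 (18/1 5 hr against 18/1 2 hr). For Gadd45a it gave -0.25 to 0.30 and -0.32 to 0.44 (patterns at 2 hr and 5 hr), -0.37 to 0.19 and -0.44 to 0.33 (times within 18/1 and 90/5), -0.42 to 0.34 (90/5 5 hr against 18/1 2 hr) and -0.14 to 0.36 (90/5 2 hr against 18/1 5 hr). For Gadd45g it gave -0.36 to 0.28 and -0.20 to 0.44 (18/1 2 hr and 90/5 2 hr against unstimulated) and -0.031 to 0.68 (times within 90/5). For Gadd45gip1 it gave -0.18 to 0.0028, -0.64 to 0.36 and -0.023 to 0.60 (18/1 2 hr, 18/1 5 hr and 90/5 5 hr against unstimulated), -0.070 to 0.93 (5 hr patterns), -0.55 to 0.45 (times within 18/1), 0.28 to 0.91 (times within 90/5) and -0.66 to 0.33 (90/5 2 hr against 18/1 5 hr). Of these, the Gadd45gip1 5 hr pattern difference passed the threshold without array 5 and the Gadd45gip1 difference of 90/5 2 hr from 18/1 5 hr without array 6. In those fits 4112 and 3553 of 10355 genes were called.

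Other changes of sign concerned values that were not called. Array quality weights gave -0.37 and 0.28 for Gadd45a (2 hr patterns, times within 90/5) and 0.0052, 0.092 and 0.087 for Gadd45gip1 (18/1 2 hr and 18/1 5 hr against unstimulated, times within 18/1). The t-test gave -0.014 and 0.0087 for the same Gadd45a comparisons and 0.031 for Gadd45gip1 between times within 18/1. Median centring gave 0.13 for Gadd45a (90/5 5 hr against 18/1 2 hr) and 0.57 for Gadd45gip1 (90/5 2 hr against 18/1 5 hr), and it called Gadd45g in 18/1 5 hr against 18/1 2 hr (-1.13) and 90/5 2 hr against 18/1 5 hr (1.44) and Gadd45gip1 between the 5 hr patterns (1.12). In the comparisons of those calls the median of all genes moved, in the same order, from -0.23 to -0.80, from 0.16 to 0.83 and from 0.23 to 0.93. Median centring called 5480, 4855 and 5958 of 10355 genes in them. The cause of the changes of sign was not tested. With 2 arrays per condition and most comparisons across slides, a condition cannot be told apart from its slide, and the dimmer Gadd45gip1 probe is limited by its signal over background. The background rule alone, the block among only 2 conditions and the contrast of pattern differences between the times were chosen after the data were seen.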
